A study of Mus musculus with 24 samples.

Results

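The insulin-like growth factor (IGF) genes described here are 10 genes picked by name: the ligand Igf1, the receptors Igf1r and Igf2r, the binding proteins Igfbp2 to Igfbp7 and the adaptor Irs1. Their rows were taken by Ensembl identifier from tables of 54532 genes for tumors and 35275 genes for cultured cells, and all 10 were present in both. The rule that picks them is a list of names and holds no cut on a measured value, but the names were chosen with earlier results of these data known. They were followed over 6 groups of libraries, which hold 2 mouse mammary tumor lines, each grown in culture, in immunocompetent mice and in immunodeficient mice.

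IGF-1 is a secreted growth factor that binds the receptor tyrosine kinase IGF1R, which passes the signal to PI3K and AKT through adaptors such as IRS1. IGF2R binds IGF-2 and mannose-6-phosphate-tagged lysosomal enzymes and carries them into the cell, without a kinase of its own. The IGF binding proteins hold IGFs outside the cell and can limit or prolong their access to the receptor, and proteases such as PAPP-A release the ligand by cutting them. In the mammary gland, the IGF axis is known for its part in duct growth and in involution, where IGFBP5 rises.

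D2A1 and D2.1 both derive from D2 hyperplastic alveolar nodules of BALB/c mice, and D2.1 is the line that stays dormant at metastatic sites, whereas D2A1 proliferates. In culture, each line was collected in 3 replicates, grown in low-glucose DMEM with 10% fetal bovine serum. Tumors grew from 1000000 cells per mouse, placed in the mammary fat pad of female mice aged 8 to 12 weeks, and were taken at about 500 mm3. They were matched by volume and not by time, and in the paper D2A1 tumors reached the size of D2.1 tumors in fewer days. Line, time after implantation and host age at collection therefore cannot be told apart. The paper also reports that Ki67 in D2.1 tumor cells was minimal early and higher later. Whether these D2.1 tumors were still dormant was not tested. Each line gave tumors from 4 BALB/c mice (BALB/cAnNTac) and 5 SCID-beige mice, which carry the Prkdc scid and Lyst bg alleles on the C.B-Igh-1b background. SCID-beige mice lack T and B cells and have defective NK cells, but they keep macrophages and stroma. The labels give no transgene, deletion or drug for any of these groups, and each line is represented by a single cell line. Whether the 3 cultured replicates came from separate cultures is not given, so their p-values measure the spread between these samples, which may be technical. RNA came from whole snap-frozen tumors. Host and tumor transcripts are therefore mixed, and fewer cells of a type cannot be told apart from less RNA per cell.

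The counts on genes summed to 16837260 to 24818234 in each cultured library and to 13566949 to 18355153 in each tumor. The CPM scale used here is reads of a gene divided by the library total, TMM-scaled within each table. By the library total alone, before TMM scaling, 3 reads correspond to at most 0.178 CPM in culture and 0.221 CPM in tumors. These limits cover counting error only. The tumors differed in their non-tumor markers by line. The summed level of 6 fibroblast markers was 617 to 1342 CPM in D2.1 tumors and 136 to 231 CPM in D2A1 tumors, and that of 6 endothelial markers was 74.1 to 174 CPM and 215.4 to 290 CPM. In culture, the 6 fibroblast markers summed to 57.0 to 76.2 CPM in D2.1 and 4.77 to 10.8 CPM in D2A1, where Dpt, Dcn, Lum and Col15a1 were at 0, and the 6 endothelial markers to under 1 CPM in all libraries. T cell markers were at 51.1 to 131 CPM in D2.1 and 5.49 to 18.5 CPM in D2A1 tumors of BALB/c mice and at 0.686 to 13.2 CPM in SCID-beige mice. D2.1 BALB/c replicate 1 stood apart with 402 CPM of milk protein transcripts and replicate 4 with 113 CPM of skin keratin and envelope transcripts. The summed level of 5 epithelial genes (Krt8, Krt18, Krt14, Epcam and Cdh1), which mark mammary cells, was above 0 in all libraries. In culture it was 2354 to 4634 CPM in D2.1 and 130 to 339 CPM in D2A1, without overlap. In tumors it was 361 to 1221 CPM in D2.1 and 459 to 890 CPM in D2A1, and the lines overlapped. Of the 5 genes taken singly, 3 were called higher and 1 lower in D2.1 tumors in each host. The sum was thus lower in D2.1 tumors than in cultured D2.1 cells and higher in D2A1 tumors than in cultured D2A1 cells.

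The main question was which IGF genes differ between the D2.1 and D2A1 lines. Each pair of groups was compared with edgeR's quasi-likelihood test over all genes that passed the expression filter, with Benjamini-Hochberg adjustment and a threshold of 0.05. In culture, 8 of the 10 genes passed the filter, and 6 of them were called, 4 higher and 2 lower in D2.1, where 44.9% of all 12489 tested genes were called (24.2% higher and 20.7% lower in D2.1). Igfbp2 and Igfbp3 had 0 or 1 read in each cultured library and were not tested. In BALB/c tumors, 7 of 10 were called, 5 higher and 2 lower in D2.1, against 32.6% of all genes (16.8% and 15.8%). In SCID-beige tumors, 8 of 10 were called, 4 in each direction, against 32.1% of all genes (17.2% and 14.8%). The groups did not overlap for 6 of 8, 7 of 10 and 7 of 10 genes in the same order, against 55.7%, 34.6% and 23.8% of all genes. The median size of the difference, regardless of sign, was 2.22, 1.81 and 1.97 on the log2 scale, against 0.46, 0.51 and 0.45 over all genes tested. These counts and medians describe genes chosen by name with earlier results of these data known. Their contrast with all genes is therefore a description only.

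In all, 4 genes were called in the same direction in culture and in both hosts. The share of all tested genes that met this condition is not given here, so the count is a description only. Igf1, Igf2r and Igfbp5 were higher in D2.1 each time, and Igfbp4 was lower each time. Igfbp3, Igfbp6 and Igfbp7 were called in 2 of the comparisons, with Igfbp3 and Igfbp7 lower and Igfbp6 higher in D2.1. The plot of the differences between the lines shows that no gene was called in opposite directions.

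**Figure D1:**
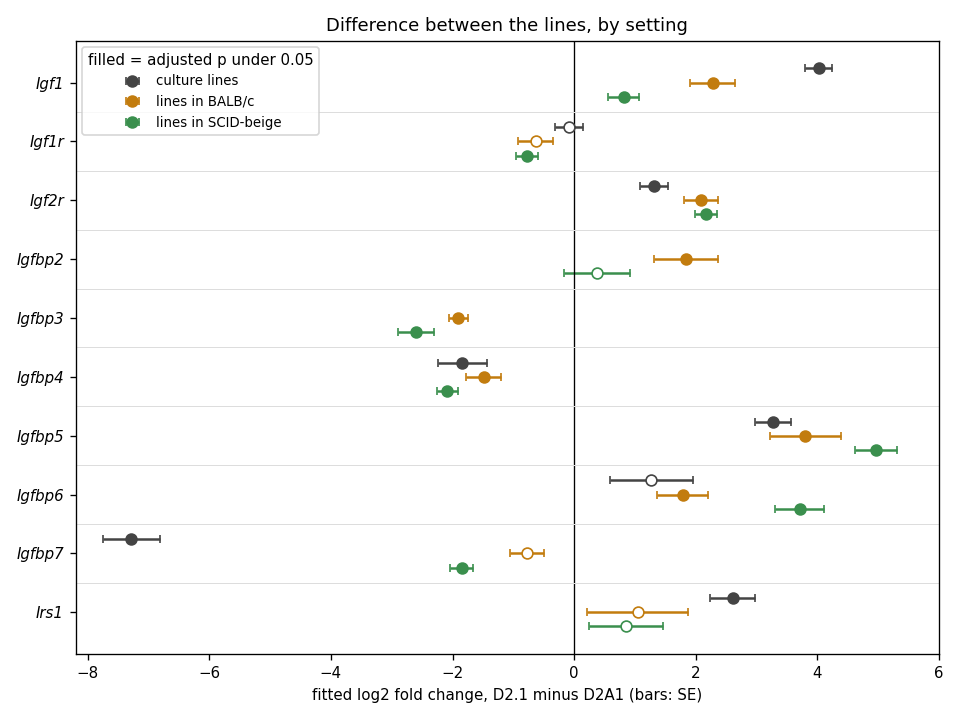
Fitted log2 fold change between the lines (D2.1 minus D2A1, x axis) for each of the 10 IGF genes (y axis) in culture (grey), BALB/c tumors (orange) and SCID-beige tumors (green), with bars for the SE and filled points for an adjusted p under 0.05. Igf1, Igf2r and Igfbp5 lie to the right of 0 and Igfbp4 to the left in all 3 comparisons, and Igfbp7 reaches -7.28 in culture.

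For the 4 genes called in all 3 comparisons and for Igfbp3 and Igfbp7, the binding proteins lower in D2.1 tumors, the 250 bases before the RefSeq start are shown (GRCm38.p6, printed 5′ to 3′ in the direction of transcription). Capitals mark matches, on either strand, to the TATA box (TATAAA), the GC box (GGGCGG), the CCAAT box (CCAAT), the E-box (CACGTG) and the AP-1 site (TGANTCA). These letters occur in 12.4%, 32.7%, 33.8%, 6.02% and 6.75% of 32851 promoter windows of the same length.
Igf1, chr10:87860861-87861110, plus strand: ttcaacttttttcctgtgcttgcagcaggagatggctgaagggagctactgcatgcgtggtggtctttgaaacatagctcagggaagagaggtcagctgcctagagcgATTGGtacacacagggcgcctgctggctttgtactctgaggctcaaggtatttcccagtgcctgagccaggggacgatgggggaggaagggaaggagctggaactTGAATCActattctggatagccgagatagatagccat
Igf2r, chr17:12769707-12769956, minus strand: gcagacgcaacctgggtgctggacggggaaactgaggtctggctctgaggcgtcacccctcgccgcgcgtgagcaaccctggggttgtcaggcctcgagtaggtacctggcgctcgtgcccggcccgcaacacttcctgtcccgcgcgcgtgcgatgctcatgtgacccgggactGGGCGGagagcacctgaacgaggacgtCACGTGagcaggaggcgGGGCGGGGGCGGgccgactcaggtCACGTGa
Igfbp5, chr1:72874866-72875115, minus strand: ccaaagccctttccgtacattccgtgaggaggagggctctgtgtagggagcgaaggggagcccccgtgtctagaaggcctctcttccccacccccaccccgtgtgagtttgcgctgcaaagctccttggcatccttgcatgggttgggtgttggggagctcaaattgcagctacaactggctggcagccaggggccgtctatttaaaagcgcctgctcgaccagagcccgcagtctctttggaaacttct
Igfbp4, chr11:99040994-99041243, plus strand: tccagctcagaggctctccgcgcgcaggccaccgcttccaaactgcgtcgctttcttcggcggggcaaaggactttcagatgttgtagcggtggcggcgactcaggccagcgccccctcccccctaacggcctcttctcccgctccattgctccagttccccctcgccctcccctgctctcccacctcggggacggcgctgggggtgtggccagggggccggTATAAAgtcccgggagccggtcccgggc
Igfbp3, chr11:7213924-7214173, minus strand: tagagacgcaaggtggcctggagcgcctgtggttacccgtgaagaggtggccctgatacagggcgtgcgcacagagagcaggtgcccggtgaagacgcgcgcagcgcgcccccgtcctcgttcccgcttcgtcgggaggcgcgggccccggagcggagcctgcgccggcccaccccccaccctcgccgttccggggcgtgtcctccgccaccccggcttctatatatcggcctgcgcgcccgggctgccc
Igfbp7, chr5:77408046-77408295, minus strand: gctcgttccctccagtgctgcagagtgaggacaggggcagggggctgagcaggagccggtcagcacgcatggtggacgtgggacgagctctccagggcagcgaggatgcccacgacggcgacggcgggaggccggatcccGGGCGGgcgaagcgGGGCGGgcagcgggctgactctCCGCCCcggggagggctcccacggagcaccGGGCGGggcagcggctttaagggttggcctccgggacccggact

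The 3 promoters of the genes higher in D2.1 had no common match. The window of Igf1 held 1 CCAAT box and 1 AP-1 site, that of Igf2r held 3 GC boxes and 2 E-boxes, and that of Igfbp5 held none of the motifs. Igfbp4 had 1 TATA box, Igfbp7 had 4 GC boxes, and Igfbp3 had no match. CpG dinucleotides numbered 5 in Igf1 and 10 in Igfbp5, against 22 in Igfbp4, 26 in Igfbp7, 27 in Igf2r and 32 in Igfbp3, with a median of 6 over all windows. A match describes letters only, and binding was not measured.

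Igf1, the ligand (ENSMUSG00000020053, chr10:87858265-87937042, plus strand), was higher in D2.1 in all 3 settings. In culture, its level was 13.8, 15.1 and 13.1 CPM in the D2.1 replicates and 0.92, 0.85 and 0.798 CPM in the D2A1 replicates. The lines did not overlap and differed 16.2-fold (log2 4.02 ± 0.22 SE, adjusted p = 2.3e-06, edgeR). Among BALB/c tumors, D2.1 libraries had 84.2, 35.7, 28.4 and 89.2 CPM and D2A1 libraries 11.8, 11.6, 15.2 and 11.1 CPM. Again no D2.1 tumor reached down to the D2A1 range, and the difference was 4.86-fold (log2 2.28 ± 0.37, adjusted p = 0.00103, edgeR). In SCID-beige tumors, D2.1 libraries had 36.8, 43.9, 23.9, 28.4 and 67.7 CPM and D2A1 libraries 23.7, 19.2, 23.1, 23.6 and 27.1 CPM. Here the groups overlapped, with a 1.76-fold difference (log2 0.81 ± 0.25, adjusted p = 0.0254, edgeR) that lost its call when any 1 of 6 libraries was left out, with the smallest difference of 0.53 (adjusted p = 0.073) without D2.1 replicate 5. Those 6 were D2.1 replicates 2 and 5 and D2A1 replicates 1 to 4. D2.1 tumors in BALB/c and in SCID-beige mice had the highest mean levels (59.4 ± 31.7 and 40.1 ± 17.3 CPM, SD, n = 4 and 5), followed by D2A1 SCID-beige tumors, and these neighbours overlapped. D2.1 cells in culture (13.99 ± 1.04 CPM, n = 3) and D2A1 BALB/c tumors (12.4 ± 1.87 CPM, n = 4) were next and overlapped each other, with cultured D2A1 cells far below (0.856 ± 0.0614 CPM, n = 3). Fibroblasts are a known source of Igf1. The summed fibroblast markers given above were also higher in D2.1 than in D2A1 in each setting without overlap. Of the 6 markers, 5 were called higher and 1 lower in BALB/c tumors, 4 higher and 1 lower in SCID-beige tumors, and 1 passed the filter in culture and was higher. Their part in the Igf1 difference was not tested. The antisense gene Igf1os overlaps Igf1 but had at most 13 reads in any tumor.

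**Figure D2:**
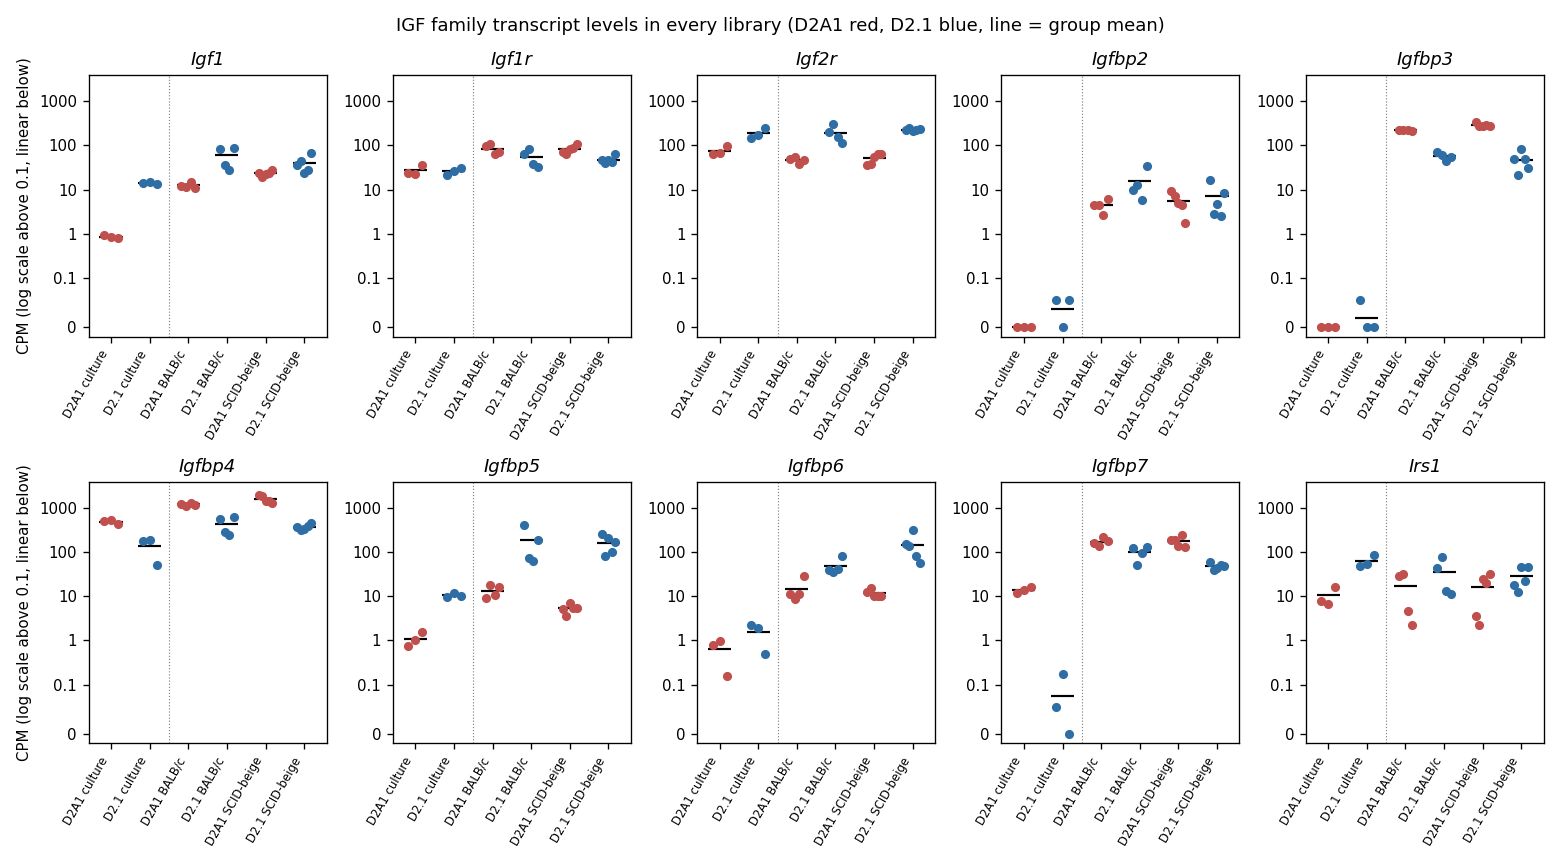
Level of each IGF gene in every library (y axis, CPM, log scale above 0.1 and linear below), by group (x axis), with D2A1 in red, D2.1 in blue and a line at each group mean. Igfbp3 is at or near 0 in the 6 cultured libraries and at 21.2 to 345 CPM in the 18 tumors, and Igfbp5 and Igf2r of D2.1 lie above D2A1 in every setting.

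The receptors went in different directions. Igf1r, the signalling receptor (ENSMUSG00000005533, chr7:67952827-68233668, plus strand), overlapped between the cultured lines, with 21.2, 26.4 and 30.7 CPM in D2.1 and 23.8, 22.3 and 36.9 CPM in D2A1. The log2 difference of -0.09 ± 0.22 was not called (adjusted p = 0.783, edgeR). For BALB/c tumors, it was at 62.5, 83.6, 38.1 and 32.9 CPM in D2.1 and 94.8, 107, 64.7 and 72.4 CPM in D2A1. The D2A1 tumors were higher on average but overlapped D2.1 (log2 -0.64 ± 0.29, adjusted p = 0.123, edgeR). Same-numbered libraries of these groups varied together, and with the replicate number as a block the difference was called (log2 -0.69, adjusted p = 0.0014). It was also called without D2.1 replicate 2 (log2 -0.92, adjusted p = 0.021). With each library's GC slope as a covariate, described with Irs1, it was -0.28 (adjusted p = 0.081), and with the block and the slope together -0.26 (adjusted p = 0.766). In SCID-beige tumors, the values were 46.4, 39.5, 46.1, 41.5 and 62.4 CPM in D2.1 and 70.2, 64.5, 81.8, 89.0 and 108 CPM in D2A1. All D2A1 tumors were above all D2.1 tumors, a 1.72-fold difference (log2 -0.78 ± 0.18, adjusted p = 0.00509, edgeR). The mean levels fell in the order D2A1 BALB/c, D2A1 SCID-beige, D2.1 BALB/c and D2.1 SCID-beige tumors, each overlapping the next, and then the cultured lines.

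Igf2r, the uptake receptor (ENSMUSG00000023830, chr17:12682406-12769664, minus strand), separated the lines in every setting. Cultured D2.1 cells had 144, 173 and 248 CPM and D2A1 cells 63.9, 67.4 and 96.7 CPM. D2.1 was 2.48-fold higher without overlap (log2 1.31 ± 0.23, adjusted p = 0.00194, edgeR). In BALB/c tumors, D2.1 had 204, 313, 155 and 114 CPM and D2A1 had 49.9, 54.0, 37.1 and 45.7 CPM. In SCID-beige tumors, D2.1 had 220, 248, 207, 225 and 233 CPM and D2A1 had 35.7, 38.2, 56.0, 62.8 and 65.7 CPM. The lines differed 4.24-fold in BALB/c (log2 2.08 ± 0.28, adjusted p = 0.000343) and 4.48-fold in SCID-beige mice (log2 2.16 ± 0.18, adjusted p = 1.39e-06, edgeR). The 3 D2.1 groups overlapped one another at means of 189 to 227 CPM, and all were above the D2A1 groups, whose means were 46.7 to 76.0 CPM. This call held under all 13 alternatives in culture and all 18 in each host. The antisense gene Airn overlaps Igf2r and had 1 to 165 reads in tumors. Since the strand setting of the counting is not given, reads of the pair cannot be told apart, but Igf2r had 511 to 5177 reads in tumors.

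Among the binding proteins, Igfbp5 showed the widest difference between the tumor lines. Igfbp5 (ENSMUSG00000026185, chr1:72857932-72874884, minus strand) binds IGFs and the extracellular matrix. In culture, it was at 9.86, 12.2 and 10.3 CPM in D2.1 and 0.748, 1.02 and 1.54 CPM in D2A1. D2.1 was 9.67-fold higher (log2 3.27 ± 0.29, adjusted p = 3.92e-05, edgeR). BALB/c tumors of D2.1 had 418, 72.9, 64.3 and 187 CPM and D2A1 had 9.01, 17.7, 11.0 and 15.9 CPM. In SCID-beige tumors, D2.1 had 259, 80.9, 208, 98.8 and 174 CPM and D2A1 had 5.18, 3.65, 7.25, 5.37 and 5.49 CPM. No D2.1 library overlapped D2A1 in either host, although D2.1 libraries differed among themselves by 6.49-fold in BALB/c and 3.19-fold in SCID-beige mice. The difference was 13.9-fold in BALB/c (log2 3.80 ± 0.58, adjusted p = 0.00076) and 31.1-fold in SCID-beige mice (log2 4.96 ± 0.34, adjusted p = 2.64e-07, edgeR). The highest library, D2.1 BALB/c replicate 1, was the one with milk protein transcripts and also had the highest adipocyte and skeletal muscle marker sums of its group (571 CPM against 23.6 to 194 CPM, and 352 CPM against 31.8 to 106 CPM). Without it, the BALB/c difference was 3.07 on the log2 scale (adjusted p = 0.00077). Without replicates 1 and 4, the libraries with milk and skin transcripts, it was 2.37 (adjusted p = 0.00093). With the replicate block and the GC slope together, it was 0.61 and not called (adjusted p = 0.866).

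Igfbp6 (ENSMUSG00000023046, chr15:102144362-102149511, plus strand), which prefers IGF-2 as its ligand, was low in culture and higher in D2.1 tumors. Cultured D2.1 cells had 2.23, 1.90 and 0.484 CPM and D2A1 cells 0.805, 0.963 and 0.16 CPM. The ranges overlapped (log2 1.27 ± 0.68, adjusted p = 0.167, edgeR), but replicate 3 was lowest in both lines, and with the replicate number as a block the adjusted p was 0.017. It was also called without D2.1 replicate 3 (log2 1.69, adjusted p = 0.039). BALB/c tumors had 38.7, 34.8, 42.5 and 82.9 CPM in D2.1 and 11.0, 8.63, 11.0 and 29.0 CPM in D2A1. SCID-beige tumors had 158, 135, 315, 83.6 and 55.6 CPM in D2.1 and 12.3, 15.1, 9.99, 10.4 and 10.4 CPM in D2A1. D2.1 was above D2A1 without overlap in both hosts, by 3.44-fold in BALB/c (log2 1.78 ± 0.42, adjusted p = 0.00861) and 13.1-fold in SCID-beige mice (log2 3.71 ± 0.40, adjusted p = 1.19e-05, edgeR). Without the libraries with milk and skin transcripts, the BALB/c difference was 1.39 with an adjusted p of 0.062. The fibroblast markers were higher in D2.1 than in D2A1 tumors, as were Igfbp5 and Igfbp6, and their part in both was not tested.

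Igfbp2 (ENSMUSG00000039323, chr1:72824503-72852474, plus strand), a secreted binding protein that fat cells also make, was at 0 or 1 read in culture. BALB/c tumors had 9.58, 12.6, 5.93 and 33.5 CPM in D2.1 and 4.39, 4.41, 2.65 and 6.22 CPM in D2A1. The D2.1 mean was higher, and the lowest D2.1 tumor lay within the D2A1 range (log2 1.84 ± 0.52, adjusted p = 0.0205, edgeR). The difference fell to 1.10 without D2.1 replicate 4 (adjusted p = 0.049) and lost its call without D2A1 replicate 1 or 3 (adjusted p = 0.051 and 0.056). The call was also lost with the GC slope (1.72, adjusted p = 0.059) and without D2.1 replicates 1 and 4 together (1.08, adjusted p = 0.11). SCID-beige tumors had 16.6, 2.75, 4.67, 2.48 and 8.40 CPM in D2.1 and 9.51, 7.01, 4.86, 4.35 and 1.75 CPM in D2A1. They overlapped throughout (log2 0.38 ± 0.54, adjusted p = 0.639, edgeR), and the adipocyte markers ranged from 2.08 to 571 CPM over the tumors.

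Igfbp3, the main carrier of IGFs in blood (ENSMUSG00000020427, chr11:7206086-7213923, minus strand), was near 0 in culture and present in every tumor. The 6 cultured libraries held 1 read in all, in D2.1 replicate 1, and each tumor held 362 to 4933 reads. In BALB/c tumors, D2.1 had 71.7, 61.9, 44.2 and 56.1 CPM and D2A1 had 220, 226, 229 and 211.9 CPM. In SCID-beige tumors, D2.1 had 49.7, 21.2, 82.8, 49.9 and 31.3 CPM and D2A1 had 345, 280, 272, 289 and 269 CPM. The D2A1 values were tight and far above D2.1, which was 3.74-fold lower in BALB/c (log2 -1.90 ± 0.16, adjusted p = 1.19e-05) and 6.06-fold lower in SCID-beige mice (log2 -2.60 ± 0.30, adjusted p = 2.08e-05, edgeR). D2A1 SCID-beige tumors were highest and did not overlap D2A1 BALB/c tumors, and both D2.1 groups were below and overlapped each other. The summed endothelial markers were likewise higher in D2A1 tumors without overlap and near 0 in culture. Their part in the Igfbp3 difference was not tested, and tumors and cultures were not tested against each other because they are in separate tables.

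Igfbp4 (ENSMUSG00000017493, chr11:99041244-99054392, plus strand), the substrate of the protease PAPP-A, was lower in D2.1 in culture and in both hosts. Cultured D2.1 cells had 176, 185 and 51.6 CPM and D2A1 cells 509, 532 and 433 CPM. D2.1 was 3.57-fold lower without overlap (log2 -1.84 ± 0.41, adjusted p = 0.00624, edgeR). The call was lost with each library's GC slope as a covariate (log2 -1.96, adjusted p = 0.11) and without a low-count filter (log2 -1.84, adjusted p = 0.054), while the size of the difference stayed. BALB/c tumors had 559, 283, 245 and 624 CPM in D2.1 and 1256, 1136, 1335 and 1171 CPM in D2A1. SCID-beige tumors had 376, 322, 335, 390 and 456 CPM in D2.1 and 2031, 1881, 1436, 1465 and 1335 CPM in D2A1. All D2.1 tumors were below all D2A1 tumors, by 2.81-fold in BALB/c (log2 -1.49 ± 0.29, adjusted p = 0.00313) and 4.25-fold in SCID-beige mice (log2 -2.09 ± 0.17, adjusted p = 1.3e-06, edgeR). D2A1 tumors of either host led, cultured D2A1 cells (491 ± 51.8 CPM, SD, n = 3) overlapped D2.1 tumors, and cultured D2.1 cells were lowest (138 ± 74.6 CPM, n = 3).

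Igfbp7 (ENSMUSG00000036256, chr5:77349240-77408041, minus strand), a matrix protein of blood vessels that binds IGFs weakly, was nearly absent from cultured D2.1 cells. It had 1, 4 and 0 reads in the D2.1 replicates, against 754 reads over the D2A1 replicates (12.2, 13.7 and 16.0 CPM). As a share of all counts it was 184-fold lower in D2.1, with an exact 95% interval of 78.4 to 568 that covers counting error only (adjusted p = 6.42e-06, edgeR). The fitted log2 difference of -7.28 ± 0.47 was -8.69 without D2.1 replicate 2, which held 4 of the 5 reads. BALB/c tumors had 122, 50.7, 94.2 and 132 CPM in D2.1 and 165, 136, 218.6 and 181 CPM in D2A1. SCID-beige tumors had 59.3, 38.8, 44.8, 51.1 and 47.8 CPM in D2.1 and 189, 194, 135, 242 and 132 CPM in D2A1. D2.1 was below D2A1 without overlap in both, but the 1.71-fold difference in BALB/c mice was not called (log2 -0.78 ± 0.27, adjusted p = 0.0526, edgeR) and the 3.61-fold difference in SCID-beige mice was (log2 -1.85 ± 0.19, adjusted p = 8.35e-06). The difference in BALB/c mice was called under 12 of 18 alternatives, with an adjusted p of 0.034 by DESeq2 and 0.0015 with the GC slope in edgeR. With the replicate number as a block, the adjusted p in BALB/c was 0.0049. It was also under the threshold without any 1 of D2.1 replicate 2, D2.1 replicate 4 and D2A1 replicate 2 (0.047, 0.034 and 0.0499). Endothelial cells are known for Igfbp7. Of 6 endothelial markers, 4 were called lower and 1 higher in D2.1 among BALB/c tumors, and 5 lower and 1 higher among SCID-beige tumors. Of 5 pericyte markers, whose sums overlapped, 1 and 3 were called lower. The part of these markers was not tested. The end of Igfbp7 overlaps Polr2b on the other strand, which had 785 to 1743 reads in tumors and up to 3305 in culture. The strand setting of the counting is not given, and cultured D2.1 cells had 5 Igfbp7 reads in all beside these.

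Per kb of exon, which allows genes to be compared within a library, the make-up of the binding protein transcripts differed by setting and line. The measure was CPM divided by the exon length of GENCODE M21 and given as a share of the sum over Igfbp2 to Igfbp7. In culture, Igfbp4 held a median of 91.4% in D2.1 and 90.7% in D2A1. The remainder was Igfbp5 (4.45%) and Igfbp6 (3.73%) in D2.1 but Igfbp7 (8.504%) in D2A1. In tumors, Igfbp4 held a median of 54.7% in D2A1 BALB/c and 60.6% in D2A1 SCID-beige tumors, with Igfbp7 second (28.0% and 21.4%) and Igfbp3 next (13.5% and 14.8%). In D2.1 tumors, the share of Igfbp4 was lower, with a median of 35.6% in BALB/c and 29.3% in SCID-beige mice. Igfbp7 was second in D2.1 BALB/c tumors (28.0%). In D2.1 SCID-beige tumors, Igfbp6 held a median of 41.3% (21.2% to 61.6%), above Igfbp4 in replicates 1 to 3 and below it in replicates 4 and 5. Igfbp5 held 5.36% to 19.3% in D2.1 tumors and at most 0.649% in D2A1 tumors. The shares and their order depended on the gene lengths. The deposited FPKM of the tumors implied 1183 bases for Igfbp4, against 4416 bases of M21 exon. By FPKM, Igfbp4 was first in every tumor, with a median of 64.3% in D2.1 BALB/c and 59.7% in D2.1 SCID-beige tumors, where Igfbp6 held 23.6%. Also by FPKM, the medians of Igfbp4 were higher in D2A1 tumors (79.0% and 82.2%). The shares sum to a whole, so a gain of one gene lowers the others, and they were not tested.

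**Figure D3:**
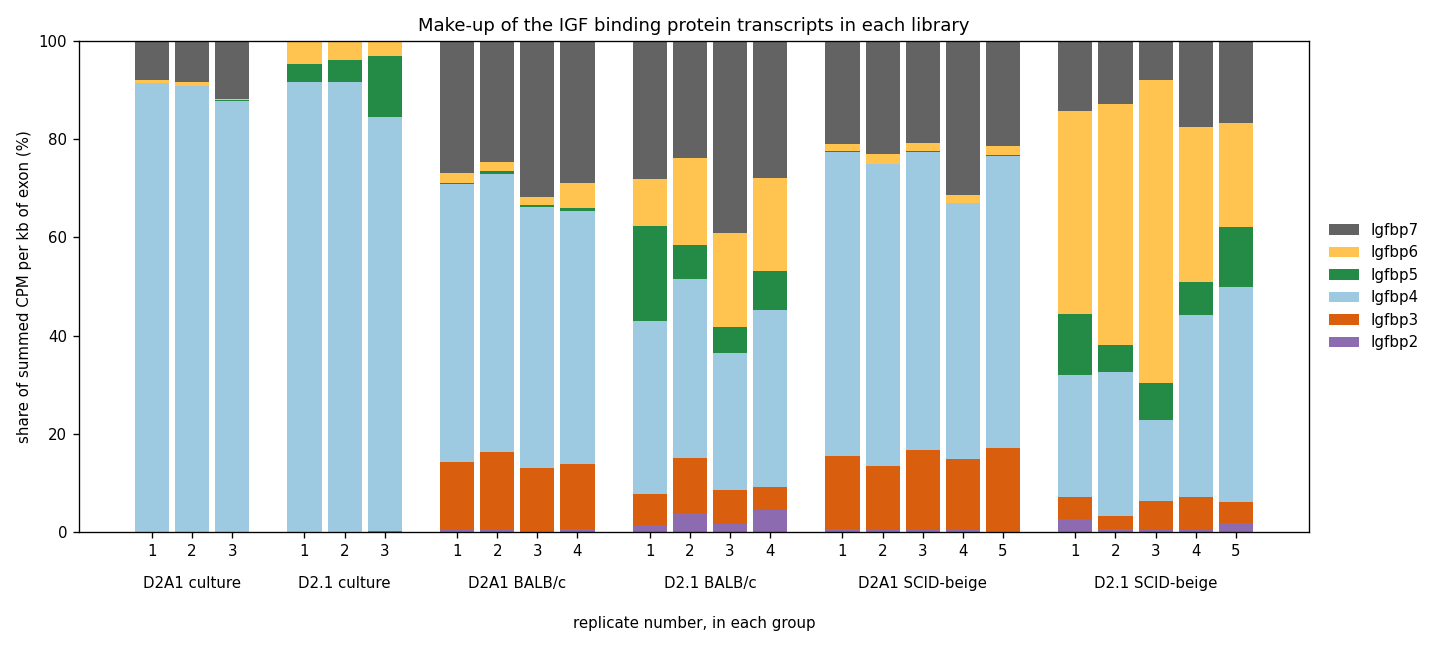
Share of each binding protein in the summed CPM per kb of exon of Igfbp2 to Igfbp7 (y axis, percent) in every library (x axis, replicates by group). By exon length, Igfbp4 fills most of the cultured libraries, Igfbp7 holds a part in cultured D2A1 cells and in all tumors, Igfbp3 is seen in tumors, and Igfbp5 and Igfbp6 are wider in D2.1 than in D2A1 tumors.

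Irs1, the adaptor that couples IGF1R and the insulin receptor to PI3K (ENSMUSG00000055980, chr1:82233101-82291416, minus strand), was higher in D2.1 in culture and varied widely within tumor groups. Cultured D2.1 cells had 49.1, 54.7 and 88.1 CPM and D2A1 cells 7.88, 6.80 and 16.7 CPM. D2.1 was 6.09-fold higher without overlap (log2 2.61 ± 0.37, adjusted p = 0.00055, edgeR). BALB/c tumors had 43.1, 76.7, 13.4 and 11.1 CPM in D2.1 and 29.3, 32.7, 4.74 and 2.26 CPM in D2A1. SCID-beige tumors had 17.6, 12.5, 46.6, 21.8 and 45.7 CPM in D2.1 and 3.57, 2.24, 24.3, 19.6 and 32.4 CPM in D2A1. The lines overlapped in both hosts, and the differences of 1.05 ± 0.83 in BALB/c (adjusted p = 0.369) and 0.85 ± 0.61 in SCID-beige mice (adjusted p = 0.319, edgeR) were not called. The highest and the lowest library of a group differed by 3.71-fold to 13.8-fold.

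The spread of Irs1 went with a property of the libraries. For each library, the slope of log2 CPM on the GC content of genes was taken, per 10 percentage points of GC. It ranged from -0.293 to 0.307 over the tumors and overlapped between the groups. In all 4 tumor groups, the 2 libraries with the lowest slope had the 2 highest Irs1 levels. The same held for Igf1r and Igf2r in both BALB/c groups, but not for Igf1 in any group. The opposite order, with the 2 lowest levels in these libraries, held for Igfbp6 in both BALB/c groups and for Igfbp7 in both D2A1 groups. Centred within groups, log2 CPM correlated with the slope at -0.89 for Irs1, -0.85 for Igf1r, -0.72 for Igf2r and 0.61 for Igfbp7. Of 16061 genes, 4.78%, 7.74%, 15.7% and 81.0% had a lower correlation, in the same order. With the slope as a covariate, the Irs1 difference in BALB/c tumors was 2.44 on the log2 scale (adjusted p = 0.0086), and with the replicate number as a block it was 1.34 (adjusted p = 0.0029, edgeR). With both, it was 1.39 (adjusted p = 0.372). In culture, the slopes of the lines did not overlap (0.070 to 0.1003 in D2.1, -0.200 to -0.019 in D2A1), so that line and slope cannot be told apart there. Under the block with the slope in BALB/c tumors, Igf2r, Igfbp3, Igfbp6 and Igfbp7 were called (adjusted p = 0.0053, 0.018, 0.025 and 0.030), and the other 6 genes were not. Of these, Igfbp4 was at -2.40 and Igfbp2 at 1.59 on the log2 scale (adjusted p = 0.101 and 0.333). Igf1 fell to 1.07 and Igfbp5 to 0.61 (adjusted p = 0.658 and 0.866), and Igf1r was at -0.26 (adjusted p = 0.766). That fit spends most of the information of 8 libraries on its terms.

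**Figure D4:**
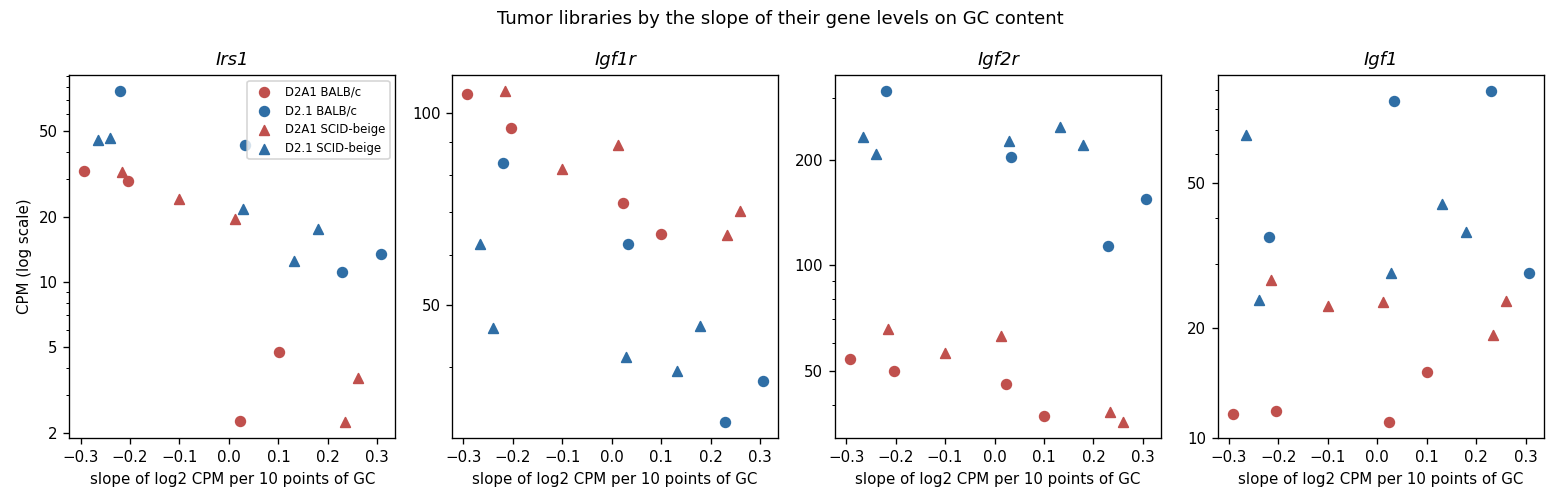
Level of Irs1, Igf1r, Igf2r and Igf1 (y axis, CPM, log scale) in the 18 tumor libraries against the slope of each library's gene levels on GC content (x axis, log2 CPM per 10 points of GC), with D2A1 in red, D2.1 in blue, BALB/c as circles and SCID-beige as triangles. Irs1 is highest at the low slopes within each group, and Igf1 shows no such order.

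The next question was whether the host goes with a change of IGF genes within a line. The hosts differ in T and B cells, NK cell function, the Lyst allele and background, which cannot be told apart here. The paper also reports slower growth of D2A1 tumors in BALB/c than in SCID-beige mice. Time after implantation and host age at collection may therefore differ between the hosts as well, and cannot be told apart from the host. In D2.1 tumors, 0 of 10 were called by edgeR between BALB/c and SCID-beige mice, where 0.891% of all genes were called (0.871% higher and 0.0201% lower in BALB/c). The shares of all genes with an unadjusted p under 0.05 or called by DESeq2 are not given here. Counts by these measures are descriptions only. By unadjusted p under 0.05, 2 passed, and DESeq2 called the same 2 genes. These were Igfbp7, with a 2.13-fold higher level in BALB/c (log2 1.09 ± 0.26, adjusted p = 0.0728 by edgeR and 0.0056 by DESeq2), and Igfbp6, with a 2.88-fold lower level (log2 -1.53 ± 0.45, adjusted p = 0.171 by edgeR and 0.0084 by DESeq2). For Igfbp7, D2.1 BALB/c replicate 2 at 50.7 CPM lay within the SCID-beige range of 38.8 to 59.3 CPM, and without it the adjusted p was 0.0054. For Igfbp6, the SCID-beige range of 55.6 to 315 CPM included the highest BALB/c tumor, replicate 4 at 82.9 CPM. The endothelial markers summed to 101 to 174 CPM in BALB/c and 74.1 to 108 CPM in SCID-beige tumors of D2.1, with a median log2 difference of 0.62 and 0 of 6 called, and their part was not tested. Of the other genes, Igfbp2 was at a log2 difference of 1.19, Igf1 at 0.61, Igfbp3 at 0.35, Irs1 at 0.34, Igf1r and Igfbp4 at 0.23, Igfbp5 at 0.21 and Igf2r at -0.18 (adjusted p = 0.568 to 0.955, edgeR). The groups overlapped for all 10 genes, against 4.66% of all genes that did not.

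In D2A1 tumors, 2 of 10 genes were called, Igf1 lower and Igfbp5 higher in BALB/c mice, where 1.17% of all genes were called (0.906% higher and 0.261% lower in BALB/c). Igf1 was at 11.1 to 15.2 CPM in BALB/c and 19.2 to 27.1 CPM in SCID-beige mice, 1.86-fold lower without overlap (log2 -0.89 ± 0.17, adjusted p = 0.030, edgeR). Igfbp5 was at 9.01 to 17.7 CPM and 3.65 to 7.25 CPM, 2.52-fold higher without overlap (log2 1.33 ± 0.26, adjusted p = 0.0363, edgeR). Both calls were close to the threshold. That of Igf1 was lost when any library except D2A1 BALB/c replicate 3 and SCID-beige replicate 2 was left out (adjusted p up to 0.127), and that of Igfbp5 when any except BALB/c replicates 1 and 3 and SCID-beige replicate 3 was left out (up to 0.159). Both were lost in one fit of all tumors (0.278 and 0.241). Igfbp3 did not overlap either, with 211.9 to 229 CPM in BALB/c and 269 to 345 CPM in SCID-beige mice, but was not called (log2 -0.38 ± 0.12, adjusted p = 0.220, edgeR). The 3 of 10 genes without overlap compare with 5.33% of all genes. Igfbp4 was at 1136 to 1335 CPM and 1335 to 2031 CPM (log2 -0.40 ± 0.16, adjusted p = 0.413, edgeR). In the same tumors, fibroblast markers were at 208 to 231 CPM in BALB/c and 136 to 231 CPM in SCID-beige mice and macrophage markers at 1148 to 2257 CPM and 635 to 1178 CPM, and their part in these values was not tested. The log2 difference was 0.37 for Igfbp6, 0.10 for Irs1, 0.05 for Igf1r, -0.01 for Igfbp7, -0.13 for Igf2r and -0.29 for Igfbp2, none of them called.

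**Figure D5:**
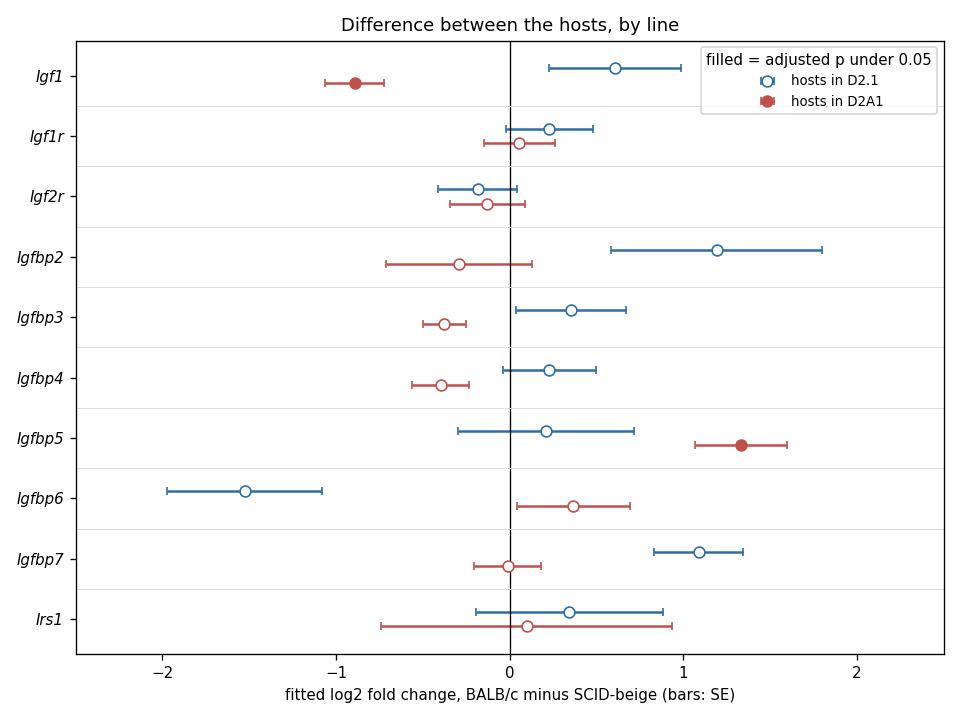
Fitted log2 fold change between the hosts (BALB/c minus SCID-beige, x axis) for each IGF gene (y axis) in D2.1 (blue) and D2A1 tumors (red), with bars for the SE and filled points for an adjusted p under 0.05. The only filled points are Igf1 at -0.89 and Igfbp5 at 1.33, both in D2A1 tumors. The points of the lines lie on different sides of 0 for Igf1, Igfbp2, Igfbp3, Igfbp4, Igfbp6 and Igfbp7.

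Whether the effect of the host differed between the lines was tested as the interaction of line and host. It was called for 0 of 10 genes by edgeR and 0 by DESeq2, where 0.0187% of all genes were called by edgeR. The share of all genes with an unadjusted p under 0.05 is not given here, so that count is a description only. By unadjusted p under 0.05, 3 passed, with the difference of the 2 host effects (D2.1 minus D2A1) at 1.47 ± 0.45 on the log2 scale for Igf1, -1.93 ± 0.60 for Igfbp6 and 1.07 ± 0.33 for Igfbp7 (adjusted p = 0.344, 0.350 and 0.350, edgeR). For the other genes it was 1.45 for Igfbp2, 0.70 for Igfbp3, 0.59 for Igfbp4, 0.22 for Irs1, 0.14 for Igf1r, -0.08 for Igf2r and -1.16 for Igfbp5. The host difference of Igf1 was 0.61 ± 0.38 in D2.1 and -0.89 ± 0.17 in D2A1 tumors, without a called interaction. On simulated data, a log2 change of 2 was recovered for 60% of genes by this interaction test.

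To set the 10 genes in their pathway, 40 other genes of IGF and insulin signalling were counted in the same fits. They too were chosen with earlier results of these data known. In culture, 31 passed the filter, and 15 were called, 13 higher and 2 lower in D2.1, where 44.9% of all genes were called in the same fit. The pathway count was 24 with the replicate number as a block, and 8 with the GC slope as a covariate. In BALB/c tumors, 14 of 32 were called, 13 higher and 1 lower in D2.1, against 32.6% of all genes. That count of 14 was 23 with the GC slope, 24 with a slope on gene length and 5 with the replicate block and GC slope together. The share of all genes called under each of these alternatives is not given here, so those counts are descriptions only. In SCID-beige tumors 14 of 30 were called, with 11 higher and 3 lower, against 32.1% of all genes. The median log2 difference of the list was 0.37, 0.44 and 0.40, against -0.02, -0.02 and 0.02 over all genes tested, with no change of the first when Igfbpl1, at 0 in cultured D2A1 cells, was set at its lower bound. The growth factor Igf2 had at most 3 reads in any library, and Ins1, Ins2 and Igfbp1 had 0. Igf1 was thus the only IGF or insulin ligand of these lists that passed the filter.

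Of the proteases and inhibitors that act on the binding proteins, 4 of the 4 tested were higher in D2.1 tumors in each host. Among all genes tested, 16.8% were higher in D2.1 in BALB/c and 17.2% in SCID-beige mice. Stc1, a secreted inhibitor of PAPP-A, was at 35.2 to 56.9 CPM in D2.1 and 2.38 to 5.79 CPM in D2A1 tumors of BALB/c mice, and at 41.2 to 153 CPM and 1.89 to 4.74 CPM in SCID-beige mice. It was 10.3-fold and 22.7-fold higher (log2 3.37 ± 0.34 and 4.51 ± 0.39, adjusted p = 5.44e-05 and 1.76e-06, edgeR). Pappa, the protease that cuts IGFBP4 and IGFBP5, was 7.10-fold and 3.75-fold higher (log2 2.83 ± 0.60 and 1.91 ± 0.50, adjusted p = 0.00475 and 0.0103), at 3.86 to 20.3 CPM against 0.554 to 2.19 CPM in BALB/c and 1.77 to 10.0 CPM against 0.842 to 1.98 CPM in SCID-beige mice. The protease and its inhibitor were thus both higher in D2.1, and so were Stc2, the other inhibitor, and the protease Htra1, the last named after its values were seen. Stc2 was at 11.6 to 17.4 CPM in D2.1 and 4.10 to 7.53 CPM in D2A1 tumors of BALB/c mice but at 1.34 to 4.85 CPM in cultured D2.1 and 15.4 to 17.6 CPM in cultured D2A1 cells. It was therefore lower in D2.1 in culture (log2 -2.18 ± 0.39, adjusted p = 0.00208) and higher in tumors (log2 1.38 ± 0.26 in BALB/c and 1.19 ± 0.27 in SCID-beige mice, adjusted p = 0.00257 and 0.00435, edgeR). The part of the fibroblast markers, which were also higher in D2.1 tumors, was not tested.

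In culture, the largest rises of the pathway list were Igfbpl1, Pappa and Stc1, all close to 0 in D2A1. Igfbpl1, an IGFBP-like secreted protein, had 58 reads over the D2.1 replicates and 0 over the D2A1 replicates, at least 15.9-fold higher against a floor of 3 reads over the group. Pappa had 284 and 2 reads, a ratio of 116 (exact 95% interval 32.0 to 967), and Stc1 had 86 and 2 reads, a ratio of 35.3 (9.47 to 296), with intervals that cover counting error only. Without D2A1 replicate 3, which held both reads of each gene, the fitted log2 difference was 9.52 for Pappa and 7.77 for Stc1, against 6.79 and 5.05 with it. The 2 falls were Stc2 and Tsc2, a brake on mTOR (log2 -0.44 ± 0.15, adjusted p = 0.0407, edgeR). Tsc2 was at 57.9 to 78.9 CPM in D2.1 and 84.7 to 106 CPM in D2A1. Its call was lost when any library except D2.1 replicate 3 was left out (adjusted p = 0.060 to 0.142) and with the GC slope (log2 -0.15, adjusted p = 0.698). With the GC slope, Stc2 was at -2.18 (adjusted p = 0.062), Pappa at 8.03 (adjusted p = 0.069) and Igfbpl1 at 6.92 (adjusted p = 0.144), none of them called.

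Among the adaptors, Irs2, another insulin receptor substrate, was lower in D2.1 tumors. It was at 11.8 to 26.2 CPM against 49.5 to 72.1 CPM in BALB/c mice and 7.21 to 19.7 CPM against 39.2 to 66.8 CPM in SCID-beige mice (log2 -1.53 ± 0.25 and -1.94 ± 0.25, adjusted p = 0.00114 and 6.15e-05, edgeR). Irs3 was among the 3 largest rises in BALB/c mice (log2 2.55 ± 0.51, adjusted p = 0.00346), and Gab1, a docking protein of receptor kinases, among those in SCID-beige mice (log2 1.53 ± 0.25, adjusted p = 0.000427, edgeR). The other falls in SCID-beige mice were Grb10, which binds and restrains IGF1R (log2 -1.55 ± 0.39, adjusted p = 0.00764), and Pik3r2, a regulatory subunit of PI3K (log2 -0.67 ± 0.22, adjusted p = 0.031, edgeR). The Pik3r2 call was lost when any 1 of 5 libraries was left out, D2.1 replicates 2, 3 and 5 and D2A1 replicates 1 and 2 (adjusted p = 0.051 to 0.072). Grb10 was at 1.29 to 7.81 CPM in D2.1 and 8.49 to 19.8 CPM in D2A1 tumors of these mice. Of the 16 genes of the kinase cascade, 4 were higher in D2.1 in each host, with 0 lower in BALB/c and 1 lower in SCID-beige mice, near the 16.8% and 17.2% of all genes that were higher. Among the other receptors, the 2 called were Ghr, the growth hormone receptor, and Lrp1, a scavenger receptor, both higher in D2.1 in all 3 settings. These receptors were named after their values were seen.

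Between hosts, 0 of 32 pathway genes in D2.1 and 0 of 31 in D2A1 tumors were called by edgeR, with 6 and 1 at an unadjusted p under 0.05, and the interaction was called for 0 of 34, with 4 at an unadjusted p under 0.05. DESeq2 called 2 in D2.1 tumors, 0 in D2A1 tumors and 0 for the interaction. The shares of all genes with an unadjusted p under 0.05 or called by DESeq2 are not given here. The counts by these measures are therefore descriptions only.

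The genes whose 6 group means were most like those of each member were taken from 13810 protein-coding genes, by the root mean square difference of centred log2 CPM. For Igf1 they were Synpo and Emilin1 (0.19 and 0.21), for Igf2r Zfp354c and Nr2f2 (0.14 and 0.18), and for Igf1r Dnase1l1 and Prob1 (0.09 and 0.11). For Igfbp4 they were Il17rd and Mex3a (0.12 and 0.21) and for Igfbp5 Hdgfl3 and Phactr1 (0.23 and 0.39). Igfbp3 had no close match over its range of 11.4 on the log2 scale, with Thbs2 and Gatm at 0.70 and 0.74. For Igfbp7 they were Egln3 and Hlx (0.39 and 0.69), for Igfbp6 Aqp1 and Slc1a7 (0.56 and 0.56), for Igfbp2 Abcg1 and Grap (0.20 and 0.23), and for Irs1 2310030G06Rik and Pik3r3 (0.16 and 0.23). The likeness is over 6 means, 2 of them from another table, and is a description only.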

How the data were processed

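RNA from 6 cultured samples and 18 individual tumors was sequenced by Novogene on an Illumina NovaSeq instrument. The authors deposited raw read counts per gene and FPKM values, in separate tables for cells and tumors. The submitters' processing notes name STAR and mm10, and the counting program, annotation and strand setting are not given in the sources used here. The deposited FPKM values implied 1 length per gene within 0.1% for 100% of 17993 genes in cells and 25931 genes in tumors, but this length differed between the tables, so FPKM was not compared between them. Ensembl identifiers were matched to GENCODE M21 on GRCm38 (34490 of 35275 in cells and 54495 of 54532 in tumors, with 0.0969% and 0.00594% of counts unmatched), and 0 columns were left unmapped.

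The 10 genes and all gene lists were chosen with earlier results of these data known. The text names all 10 genes in every comparison and, of 40 pathway genes, the 3 largest rises and 3 largest falls among those past the threshold, with Htra1, Ghr, Lrp1 and the tumor values of Stc2 added after their values were seen. Counts were filtered and TMM-scaled in edgeR 4.0.16 (R 4.3.3, limma 3.58.1) and each pair of groups was fitted on its own by the quasi-likelihood test, with Benjamini-Hochberg adjustment over all tested genes and a threshold of 0.05. The interaction used all 18 tumors. The SE of a log2 difference was not estimated directly. It was back-calculated as the size of the difference divided by the square root of the quasi-likelihood F statistic. Log2 CPM had a prior count of 2. Intervals of count ratios were exact binomial at 95%. Python 3.11.15 with numpy 2.4.6, scipy 1.17.1, pandas 2.3.3 and matplotlib 3.10.9 did the rest. Alternatives were DESeq2 1.42.0, its size factors, other low-count filters, one fit of all tumors, the replicate number as a block, GC and length slopes as covariates and leaving out libraries.

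Libraries held 16837260 to 24818234 counts in cells and 13566949 to 18355153 in tumors. Before TMM scaling, 3 counts were worth 0.121 to 0.178 CPM in cells and 0.163 to 0.221 CPM in tumors. Over 38 pairs of replicates, the chi-square per degree of freedom was 4.96 to 117, so no library was a copy of another. The fits were also tested on simulated data: of 200 genes given a log2 change of 2, 77% to 90.5% were recovered in the pairwise comparisons and 60% in the interaction (12489 to 16036 genes), with at most 6.70% false calls. Same-numbered libraries deviated together in culture (correlations 0.184 to 0.491) and between the lines in BALB/c mice (0.100 to 0.492), a hint from the data since the labels name no shared day, and not in the other comparisons. Promoter sequences are RefSeq's (GRCm38.p6).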

Additional observations from a re-analysis of the deposited data

Results flagged for a closer look

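Igfbp3 in D2A1 SCID-beige replicate 1 lay apart from its group, at 345 CPM against 269 to 289 CPM in the other 4 tumors. It was 1 of 40 groups of 4 or 5 tumors examined in this way, and chance marks about 1 in 20. No cause was tested.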

How the results depend on the processing

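The number of the 10 genes called between the lines was between 6 and 7 in culture, 6 and 9 in BALB/c and 7 and 8 in SCID-beige tumors when each library was left out in turn, and in BALB/c it was 4 with the replicate block and GC slope together. Between hosts in D2.1 tumors it was 2 by DESeq2, 1 without a filter, 1 in one fit of all tumors and 0 to 1 with a library left out. Between hosts in D2A1 tumors it was 0 with the replicate block, 0 in one fit of all tumors, 4 with the length slope, an alternative chosen after seeing the data, and 0 to 2 with a library left out. The interaction gave 0 throughout. For the 40 pathway genes, the count in culture was 24 with the replicate block, 8 with the GC slope, 24 with the length slope and 12 to 17 with a library left out. In BALB/c tumors it was 23 with the GC slope, 24 with the length slope, 5 with the replicate block and GC slope together and 12 to 14 with a library left out, and in SCID-beige tumors 12 to 15. Between hosts it was 2 by DESeq2, 1 without a filter and 0 to 1 with a library left out in D2.1, and 3 with the GC slope in D2A1 tumors. Between the lines, the log2 difference changed sign for Igf1r in culture with the GC slope (0.66) and with a library left out (-0.22 to 0.18). It also did so for Igfbp6 in culture with the GC slope (-0.54) and for Igfbp2 in SCID-beige tumors with a library left out (-0.27 to 0.62). Between hosts, it changed sign under some alternative for Igf1, Igf1r, Igf2r, Igfbp4, Igfbp5 and Irs1 in D2.1 tumors. In D2A1 tumors, it did so for Igf1r, Igf2r, Igfbp2, Igfbp6, Igfbp7 and Irs1. The interaction changed sign for Igf1r, Igf2r and Irs1. None of these was called in the main fit or where its sign changed. The replicate numbers did not pair the SCID-beige tumors or the hosts, where the block called Irs1 between the lines in SCID-beige mice (log2 1.22, adjusted p = 0.018, edgeR) and ended both host calls in D2A1 tumors. The cause of these changes was not tested. The share of all genes called under each alternative is not given here, so the counts under the alternatives are descriptions only. Depth limits Igfbp2 and Igfbp3 in culture and Igfbp7 in cultured D2.1 cells, where 0 to 4 reads per library were counted.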
